A study of Mus musculus with 16 samples.

Results

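Albumin and 7 other liver-secreted plasma proteins that are known to decline in an acute phase response (Alb, Afm, Gc, Ttr, Rbp4, Serpina6, Ahsg and Fetub) were followed in mouse liver after emodin, an anthraquinone found in rhubarb and knotweed roots. The 8 genes were taken by symbol from a deposited table of 27446 entries, with no filter on their values. Earlier results of these data were known when the genes were chosen. All 8 were among the 14308 entries abundant enough to be tested. The series holds 16 RNA sequencing libraries of liver from wild-type C57BL/6 mice, 8 per group. The 8 emodin mice received 400 mg/kg into the stomach for 3 weeks in a 0.5% sodium carboxymethyl cellulose carrier, and the 8 vehicle mice received the carrier alone. All were acclimated to the facility first, and livers were collected once the last dose had been given. Age and sex are not given in the sources used here. The labels do not state that each library came from its own mouse, so p-values measure the spread between libraries, here called livers.

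These 8 genes encode carriers and inhibitors that hepatocytes secrete into blood. Albumin holds the osmotic pressure of plasma and carries fatty acids, bilirubin and many drugs, and the other carriers move vitamins and hormones. During inflammation the liver is known to make more of the positive acute phase proteins, such as serum amyloid A and haptoglobin, and less of the negative ones, to which the 8 genes are usually counted.

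Albumin and afamin were lower in emodin livers, by about the same proportion, and the other 6 genes did not pass the test. Mean Alb fell by 29.5% and mean Afm by 29.7%, while Ahsg and Fetub, which encode the fetuins, were on average higher in emodin livers without passing. Of the 8 genes 2 were called lower and 0 higher (edgeR quasi-likelihood F test, Benjamini-Hochberg adjusted p under 0.05 over all entries tested). Among all entries tested 5.47% were called lower (782), 7.70% higher (1102) and 13.2% in either direction. Quantile normalization turned that split to 976 lower and 716 higher. The median log2 fold change (emodin over vehicle) was -0.16 over the 8 genes and 0.01 over all entries tested. DESeq2 and limma voom each called 2 of the 8 lower as well, and 0 higher. At an unadjusted p under 0.05 edgeR had the same counts, 2 lower and 0 higher. The number of calls among the 8 rests on the livers in the fit: it was 1 or 2 when a single liver was removed, and 1 (Afm) without emodin livers 4, 5 and 8.

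The libraries held 28.7 to 38.6 M estimated counts (M, mega) in vehicle livers and 28.3 to 48.2 M in emodin livers, and the lowest estimated count of any of the 8 genes in any liver was 1767. Array weights, which fall for libraries that stand apart from their group, were lowest in emodin livers 8 (0.276), 4 (0.376) and 5 (0.455). Of 10 other hepatocyte markers, such as Apob and Cps1, edgeR called 0, also at an unadjusted p under 0.05, and DESeq2 called 0. Their summed level was 22496 to 29229 CPM (counts per mega of library counts after TMM scaling) in vehicle livers and 15490 to 31835 CPM in emodin livers. Over the 53 tested markers of hepatocytes and 7 other cell types edgeR called 2 lower, among them Kdr of endothelial cells, and 0 higher, with 8 lower and 2 higher at an unadjusted p under 0.05. DESeq2 called 4 lower and 2 higher, and 0 of the listed markers were at 0 in all livers. Summed levels in vehicle and emodin livers were 125 to 554 and 189 to 510 CPM for Kupffer cells and other macrophages, 117 to 176 and 111 to 167 CPM for endothelial cells, and 5.95 to 16 and 3.13 to 7.32 CPM for lymphocytes. They were 37.9 to 66.4 and 34.0 to 173 CPM for bile duct cells and 1.15 to 5.66 and 2.42 to 7.56 CPM for neutrophils. For stellate cells they were 188 to 423 and 150 to 286 CPM, and for red cells 232 to 767 and 187 to 437 CPM. The part of these levels in the results on the 8 genes was not tested, and in bulk liver RNA fewer cells of a type cannot be told apart from less RNA per cell.

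Alb, Afm and Gc belong to 1 gene family and lie on mouse chromosome 5 (mm10, GENCODE M21 gene models, all protein-coding). Alb spans chr5:90460897-90476602 and Afm chr5:90518932-90553543, both on the plus strand and 42.3 kb apart, with Afp, the fetal alpha-fetoprotein gene, between them. Gc spans chr5:89417522-89457898 on the minus strand, 1003 kb away from Alb. The promoter sequences are shown because Alb and Afm, which are neighbours, were lower to about the same degree and Gc, a more distant relative, was not called. The windows come from RefSeq (GRCm38.p6), which matched 6 of the 8 genes, and run 5′ to 3′ on the gene's strand. They span 220 to 21 bases before the RefSeq start, which is 90460870 for Alb, 90518949 for Afm and 89457898 for Gc. For Alb and Afm this differs from the GENCODE start given above. Capitals mark 2 motifs, searched on both strands: GTTAAT, a short sequence known from liver promoters, and TTNTGTAA, a D-box type sequence as bound by DBP and related factors. These motifs do not overlap each other in the windows shown.
Alb, chr5:90460650-90460849, plus strand: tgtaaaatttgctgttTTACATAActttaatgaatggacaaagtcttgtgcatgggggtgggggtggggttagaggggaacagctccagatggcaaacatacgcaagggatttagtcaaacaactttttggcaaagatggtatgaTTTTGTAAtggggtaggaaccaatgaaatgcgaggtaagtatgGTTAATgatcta
Afm, chr5:90518729-90518928, plus strand: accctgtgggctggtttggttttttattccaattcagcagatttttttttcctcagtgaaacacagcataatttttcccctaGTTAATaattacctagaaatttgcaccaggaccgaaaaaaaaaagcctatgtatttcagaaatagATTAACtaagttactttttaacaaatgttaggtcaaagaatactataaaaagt
Gc, chr5:89457919-89458118, minus strand: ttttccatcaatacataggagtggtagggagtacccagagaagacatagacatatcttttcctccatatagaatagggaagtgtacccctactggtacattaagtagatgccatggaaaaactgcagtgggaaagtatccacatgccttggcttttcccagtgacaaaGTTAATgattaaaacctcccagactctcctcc

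Each of these 3 windows holds GTTAAT, with positions counted from the RefSeq start. It occurs 1 time in Alb (32 bases before), 2 times in Afm (138 and 73 before) and 1 time in Gc (52 before). Of all 32851 RefSeq promoter windows of 250 bases, 6.43% hold it. The windows of Ahsg, Fetub and Rbp4 hold none. The RefSeq start of Ahsg, chr16:22892015, lies inside its GENCODE span, so that window falls within the GENCODE gene model. In the 250 bases before the start, the D-box type sequence occurs 3 times in Alb (223, 204 and 75 bases before, counted to the motif's first base; the edge of the stretch shown cuts the first of them, which is therefore left in lower case), and in 0 of the other 5 genes matched. It occurs in 3.51% of all windows. The motif counts describe letters only. GTTAAT occurs in the called genes Alb and Afm and in Gc, which was not called, and a link to the levels was not tested.

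Alb was measured at 72639 CPM in the lowest vehicle liver, 84615 CPM in the median and 100479 CPM in the highest. In emodin livers the lowest was 38215 CPM (liver 4), the median 59400 CPM and the highest 78568 CPM (liver 7). All 8 emodin livers lay below the vehicle mean and 7 of 8 below every vehicle liver, with liver 7 inside the vehicle range. The group means were 84492 ± 9773 CPM and 59544 ± 13435 CPM (SD, n = 8 each), a log2 fold change of -0.50 ± 0.15 (SE), or 1.42-fold lower (edgeR adjusted p = 0.0309). The call was lost when any of vehicle livers 3, 4, 5 or 8 or emodin livers 2 or 5 was left out, where the edgeR adjusted p reached up to 0.0665. Without emodin livers 4, 5 and 8, an alternative chosen after seeing the data, the log2 fold change was -0.35 (edgeR adjusted p = 0.0736).

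Afm encodes afamin, which binds vitamin E and carries Wnt proteins in solution. It was at 231, 285 and 327 CPM in the lowest, median and highest vehicle livers and at 116, 218 and 245 CPM in the emodin livers. Of the 8 emodin livers 6 were below every vehicle liver, liver 4 was the lowest, and livers 3 and 7 overlapped the vehicle range. The means were 281 ± 34.1 and 197 ± 46.4 CPM, and the log2 fold change was -0.51 ± 0.14 (SE; edgeR adjusted p = 0.0233, n = 8 each). Afm passed whichever single liver was left out (edgeR adjusted p 0.0176 to 0.0474) and also without emodin livers 4, 5 and 8 (log2 fold change -0.34, edgeR adjusted p = 0.0424).

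Gc encodes the vitamin D binding protein, which also takes up actin released from damaged cells. It was at 4912, 5596 and 5952 CPM in the lowest, median and highest vehicle livers. In emodin livers it was at 4030, 5396 and 5810 CPM, with liver 8 lowest, and 2 of 8 were below every vehicle liver. The log2 fold change was -0.09 ± 0.09 (SE; edgeR adjusted p = 0.577, n = 8 each), and the groups overlapped in 6 of 8 emodin livers.

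**Figure D1:**
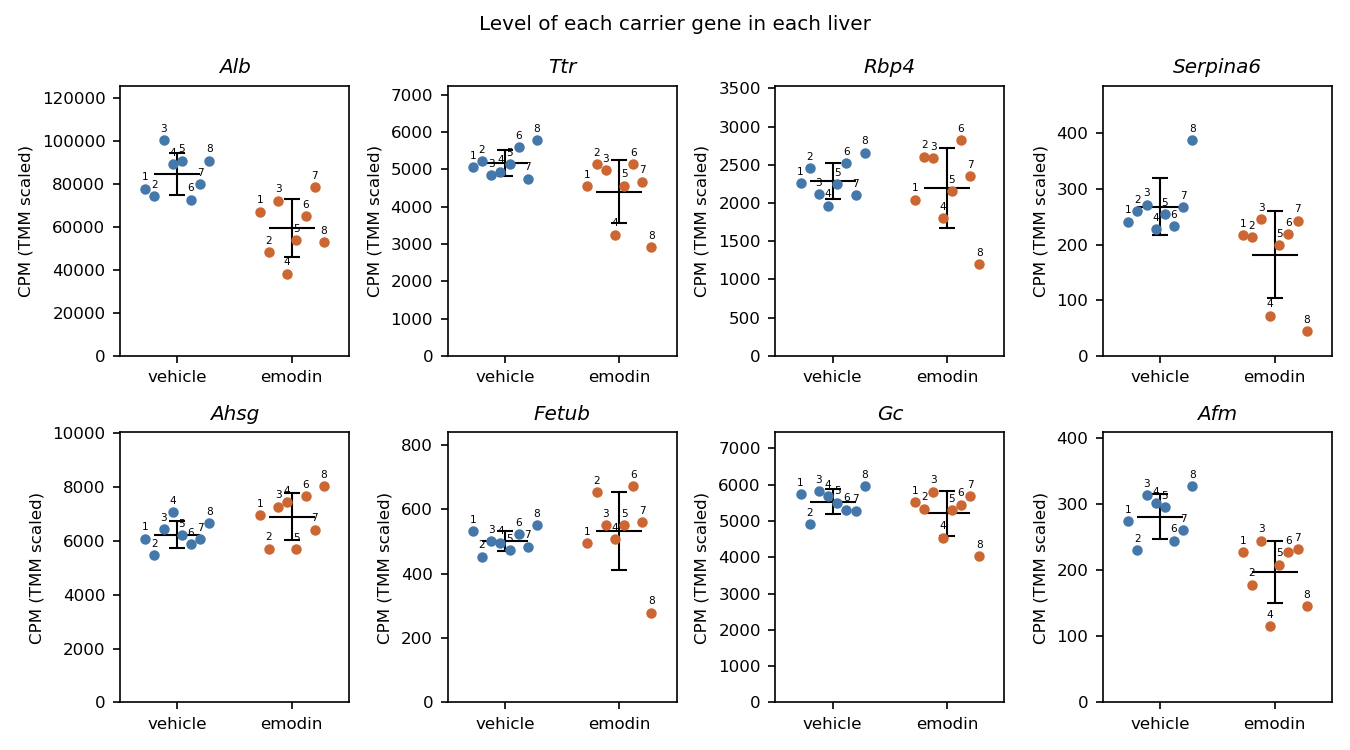
Level of each of the 8 genes in every liver, in CPM after TMM scaling on linear axes that start at 0. Each point is 1 liver with its replicate number (blue vehicle, orange emodin), and lines give the group mean ± SD (n = 8); in Alb 7 of 8 emodin points and in Afm 6 of 8 lie below all vehicle points, and emodin liver 8 is lowest in Ttr, Rbp4, Serpina6, Fetub and Gc.

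The same neighbourhood was read out gene by gene within 500 kb of the albumin cluster, a window chosen after seeing the data. Albfm1, a less studied gene of the same family that follows Afm (chr5:90561107-90597871, plus strand), was also lower, at 43.0 ± 6.03 CPM in vehicle and 27.7 ± 5.14 CPM in emodin livers. Its log2 fold change was -0.63 ± 0.11 (SE; edgeR adjusted p = 0.00235, n = 8 each), 7 of 8 emodin livers were below every vehicle liver, and it passed in all 12 other fits and all 16 fits with a liver left out. Afp, which sits between Alb and Afm, is known to be nearly silent in the adult liver and was at 1.79 ± 0.362 and 2.11 ± 2.00 CPM (log2 fold change 0.24 ± 0.38, edgeR adjusted p = 0.712). Of the flanking genes, Ankrd17 (0.10, edgeR adjusted p = 0.435) and Rassf6 (-0.08, edgeR adjusted p = 0.667) did not pass. Further off, Cox18 (0.42, edgeR adjusted p = 0.135) and Pf4 (0.08, edgeR adjusted p = 0.876) did not pass. Nor did Mthfd2l (-0.39, edgeR adjusted p = 0.251) and Ppbp (-1.02, edgeR adjusted p = 0.0743, at a mean of 0.560 CPM in vehicle livers). Cxcl1, a neutrophil-attracting chemokine gene further along the chromosome, rose by 1.92 ± 0.41 on the log2 scale (edgeR adjusted p = 0.00809). The albumin-family genes Alb, Afm and Albfm1 were thus lower side by side, and Afp and the nearest unrelated neighbours were not called.

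Ttr, Rbp4 and Serpina6 encode hormone and vitamin carriers. Transthyretin (Ttr) carries thyroid hormone and holds retinol-binding protein (Rbp4), the carrier of vitamin A, in plasma, and Serpina6 is corticosteroid-binding globulin. None of these 3 genes passed edgeR's test. Rbp4 spans chr19:38116629-38125281 and Serpina6 chr12:103646630-103657212, both on the minus strand.

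Ttr was at 4753, 5107 and 5790 CPM in the lowest, median and highest vehicle livers and at 2920, 4618 and 5146 CPM in the emodin livers. All 8 emodin livers were below the vehicle mean and 5 below every vehicle liver, with livers 8 (2920 CPM) and 4 (3253 CPM) lowest. The log2 fold change was -0.23 ± 0.12 (SE; edgeR adjusted p = 0.212, n = 8 each), and -0.07 without emodin livers 4, 5 and 8 (edgeR adjusted p = 0.555).

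Rbp4 was at 1967, 2254 and 2660 CPM in the lowest, median and highest vehicle livers and at 1202, 2253 and 2824 CPM in the emodin livers. The medians were nearly equal, and the emodin livers spread to both sides, 2 below and 1 above every vehicle liver. The log2 fold change of -0.06 ± 0.14 (SE; edgeR adjusted p = 0.810, n = 8 each) changed sign to 0.03 when emodin liver 8 was left out.

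Serpina6 was at 227, 257 and 388 CPM in the lowest, median and highest vehicle livers, where liver 8 alone was above 272 CPM. In emodin livers it was at 45, 216 and 245 CPM. Livers 8 (45 CPM) and 4 (72.3 CPM) stood well below the other 6, which lay at 199 CPM or above, and 6 of 8 emodin livers were below every vehicle liver. Its log2 fold change was the most negative of the 8 genes, at -0.56 ± 0.28 (SE), yet edgeR did not call it (adjusted p = 0.195, n = 8 each). A rank-sum test on the same CPM values did (adjusted p = 0.0451). Without emodin livers 4, 5 and 8 the log2 fold change was -0.23.

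Ahsg and Fetub are adjacent on chromosome 16 (chr16:22891277-22899449 and chr16:22918334-22939778, both plus strand, 18.9 kb apart) and encode fetuin-A and fetuin-B. Fetuin-A binds calcium phosphate in plasma and inhibits the insulin receptor, and fetuin-B inhibits the egg protease ovastacin and keeps the egg coat open to sperm.

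Ahsg was at 5469, 6147 and 7072 CPM in the lowest, median and highest vehicle livers and at 5693, 7113 and 8021 CPM in the emodin livers. Emodin liver 8 was the highest, 4 of 8 were above every vehicle liver and 0 below. The log2 fold change was 0.15 ± 0.10 (SE; edgeR adjusted p = 0.345, n = 8 each).

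Fetub was at 453, 499 and 551 CPM in the lowest, median and highest vehicle livers and at 279, 551 and 671 CPM in the emodin livers. Here 4 emodin livers were above every vehicle liver and 1, liver 8, was far below at 279 CPM, so the group widened on both sides. The log2 fold change was 0.09 ± 0.13 (SE; edgeR adjusted p = 0.689, n = 8 each). It was 0.18 without emodin liver 8, 0.04 without emodin liver 2 or 6 and 0.23 without emodin livers 4, 5 and 8 (edgeR adjusted p = 0.0852).

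In none of the 8 genes did all emodin livers lie outside the vehicle range on the low side, which 1.03% of all tested entries did. Emodin liver 8 was the lowest of its group in Gc, Ttr, Rbp4, Serpina6 and Fetub, and emodin liver 4 in Alb and Afm. In Ahsg liver 8 was the highest.

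**Figure D2:**
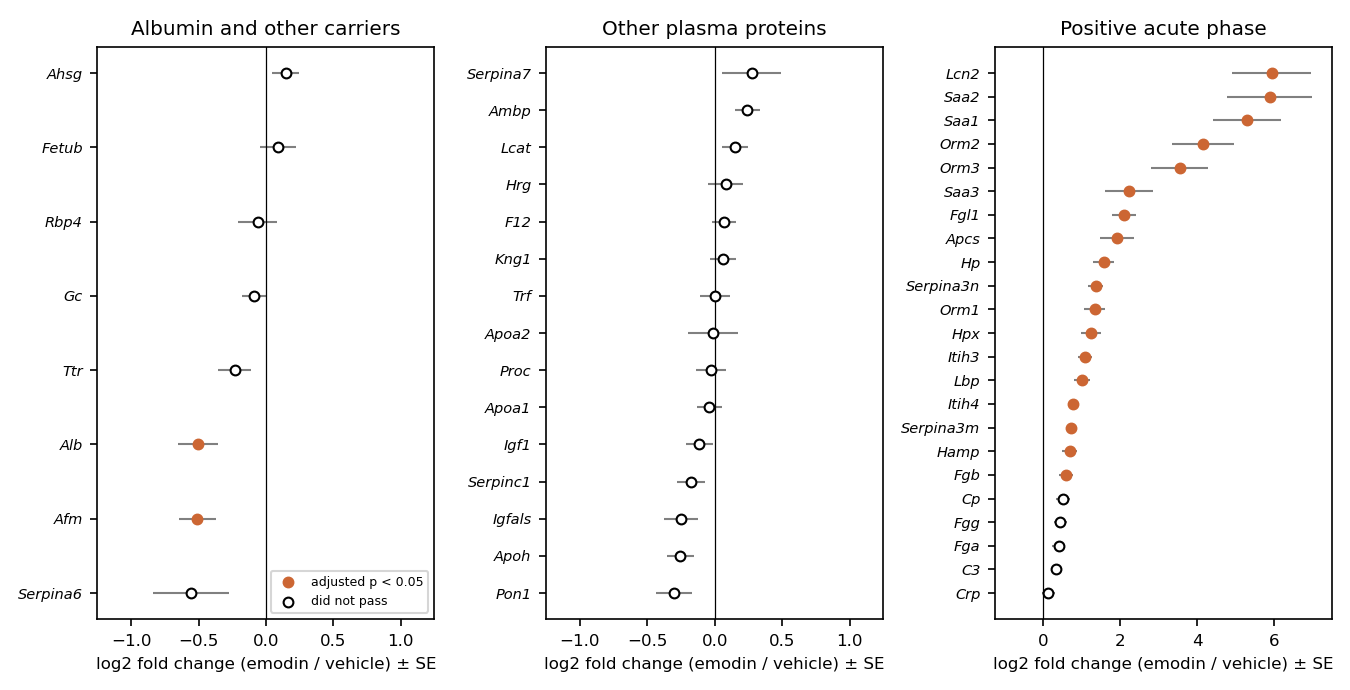
Log2 fold change (emodin over vehicle) with bars of 1 SE for the 8 genes, 15 other plasma protein genes and 23 positive acute phase genes; filled points passed edgeR's test (adjusted p under 0.05), open points did not. Alb and Afm sit at -0.50 and -0.51, Serpina6 at -0.56 with an SE of 0.28, 0 of the other plasma proteins are filled, and 18 of the positive acute phase genes are; the axis of that panel is wider.

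Per length of merged exon, the 8 genes span over 2 orders of magnitude. Alb led all 12842 genes with a length, at 36077 CPM per kb in vehicle and 25424 CPM per kb in emodin livers, and it was the top entry of the table in 16 of 16 livers. Ttr followed at 4361 and 3714 CPM per kb (rank 18 in vehicle and 23 in emodin livers), Gc at 2996 and 2823 (ranks 26 and 31), Ahsg at 2838 and 3139 (rank 28 in both) and Rbp4 at 1706 and 1635 CPM per kb (ranks 39 and 47). Fetub stood at 256 and 272 CPM per kb (rank 168 in both), Serpina6 at 152 and 103 (ranks 274 and 407) and Afm at 92.5 and 65.0 CPM per kb (ranks 436 and 598). Gc and Ahsg, whose order differed between the groups, were apart by less than 1 SD of either in vehicle (186 and 223 CPM per kb) and in emodin livers (329 and 399 CPM per kb). The order of the 8 genes was otherwise the same.

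As shares of all counts, albumin messenger RNA made up 8.34% ± 0.820 of a vehicle liver and 5.95% ± 1.07 of an emodin liver (SD, n = 8 each), a difference of -2.39 percentage points. The 8 genes summed to 10.3% ± 0.837 and 7.93% ± 1.08. The 7 genes other than Alb summed to 2.00% ± 0.0873 and 1.97% ± 0.0690, ranges that overlap. A list of 23 positive acute phase genes took 2.54% ± 0.191 and 4.81% ± 2.27, with emodin livers between 2.51% and 8.75%. Shares of 1 total move together by construction, and they are given as a description.

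**Figure D3:**
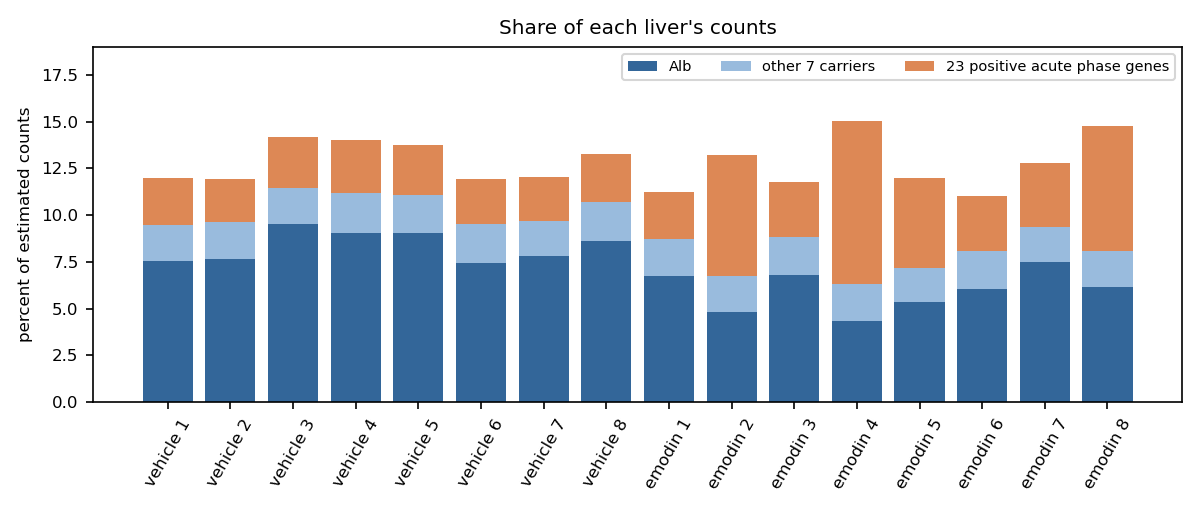
Share of each liver's estimated counts, in percent, taken by Alb, by the 7 other genes summed and by the 23 positive acute phase genes summed, as stacked bars for vehicle livers 1 to 8 and emodin livers 1 to 8. The Alb segment averages 8.34% in vehicle and 5.95% in emodin livers, the segment of the 7 others 2.00% and 1.97%, and the positive acute phase segment reaches 8.75% in emodin liver 4.

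Ratios between 2 genes of the same liver do not depend on library scaling, and they were used to ask which of the 8 genes moved apart. Of the 28 pairs 17 passed (two-sided exact permutation test enumerating every assignment of livers, Benjamini-Hochberg adjusted over the 28 pairs). Each gene enters 7 of the pairs, so the pairs are not independent and a shift in a single gene can move several. Pairs of other genes were not tested, so there is no general share to set beside the 17 of 28. Among the 7 pairs that include Alb 4 passed, against Rbp4, Ahsg, Fetub and Gc. Of the 7 pairs with Afm 5 passed, and of the 15 pairs with neither 8 passed. In 11 of the 17 the call was kept in all 19 alternatives tried.

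Albumin moved apart from fetuin-A in every liver. The Alb/Ahsg log2 ratio was 3.76 ± 0.114 in vehicle and 3.09 ± 0.386 in emodin livers (SD, n = 8 each), a difference of -0.67, or a ratio 1.59-fold lower (exact permutation adjusted p = 0.00109). All 8 emodin livers were below every vehicle liver. The raw p of 0.0001554 is the smallest this design can give, and 3 other pairs reached it. These were Ahsg/Afm (0.68 higher, all 8 emodin livers above every vehicle liver), Gc/Afm (from 4.31 ± 0.102 to 4.75 ± 0.249, all 8 above) and Serpina6/Fetub (from -0.92 ± 0.221 to -1.71 ± 0.651, all 8 below). For Serpina6/Fetub the groups all but touched, with the highest emodin liver at -1.165 and the lowest vehicle liver at -1.159. So Afm was lower relative to both fetuin-A and the vitamin D binding protein in every emodin liver, although the levels themselves overlapped.

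Alb was also lower relative to Gc, its family member, by 0.44 on the log2 scale (exact permutation adjusted p = 0.00261, 7 of 8 emodin livers below every vehicle liver). Relative to Fetub it was lower by 0.58 (exact permutation adjusted p = 0.0166) and relative to Rbp4 by 0.43 (exact permutation adjusted p = 0.0460). The Alb/Rbp4 call was kept only when the liver left out was vehicle 2 or 6 or emodin 1, 7 or 8 (exact permutation adjusted p up to 0.0814 without the others). Against Ttr the Alb ratio differed by -0.27 (exact permutation adjusted p = 0.0762) and against Serpina6 by 0.21 (exact permutation adjusted p = 0.634). The Alb/Afm log2 ratio had nearly equal means, 8.23 ± 0.0760 and 8.24 ± 0.168, a difference of 0.01 (exact permutation adjusted p = 0.919). Its emodin livers spread wider, 2 below and 3 above every vehicle liver.

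Among the hormone and vitamin carriers, Ttr was lower relative to Fetub by 0.31 (exact permutation adjusted p = 0.00653, 7 of 8 emodin livers below every vehicle liver) and relative to its plasma partner Rbp4 by 0.16 (exact permutation adjusted p = 0.0345, 6 of 8 below). The Ttr/Rbp4 call was lost without any of vehicle livers 1, 3, 4, 5 or 7 or emodin livers 2, 3, 4 or 6 (exact permutation adjusted p up to 0.0656). Serpina6 was lower relative to Ahsg by 0.88 (exact permutation adjusted p = 0.00696) and relative to Gc by 0.65 (exact permutation adjusted p = 0.00677). Rbp4 was higher relative to Serpina6 by 0.64 (exact permutation adjusted p = 0.00653). Without emodin livers 4, 5 and 8 the Serpina6/Ahsg difference was -0.34, Rbp4/Serpina6 0.33 and Serpina6/Fetub -0.43, all still passing, and Serpina6/Gc was -0.23 and no longer passed (exact permutation adjusted p = 0.0682). The 2 fetuin genes did not separate (Ahsg/Fetub 0.09, exact permutation adjusted p = 0.805). Ahsg and Gc differed by 0.23 (exact permutation adjusted p = 0.0722, 5 of 8 emodin livers above every vehicle liver).

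**Figure D4:**
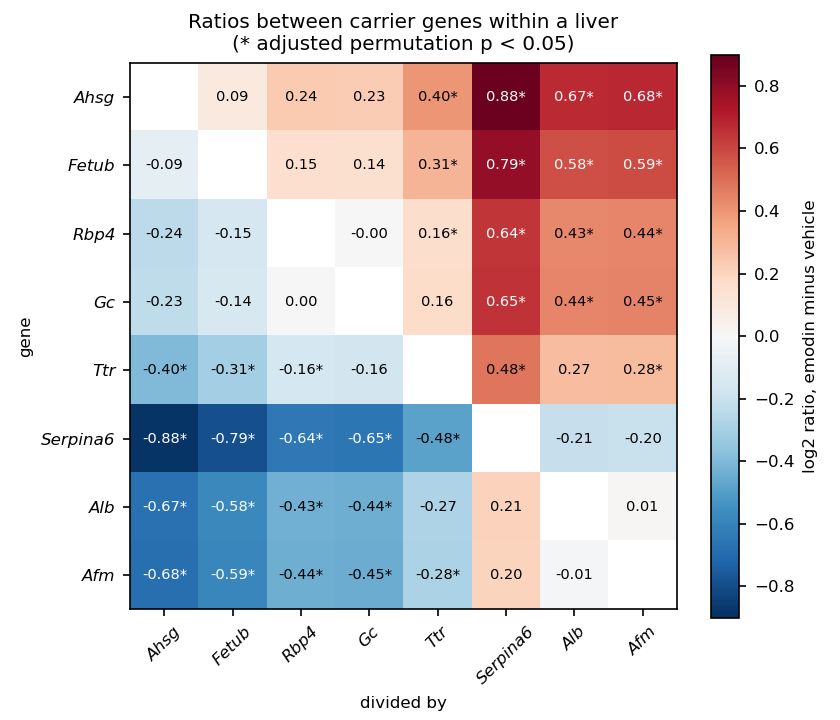
Difference between emodin and vehicle livers (emodin minus vehicle) in the mean log2 ratio of each of the 28 gene pairs, row gene divided by column gene, so that the cells on either side of the diagonal mirror each other. Colour and printed number give the difference and a star marks an adjusted permutation p under 0.05; Ahsg over Alb and over Afm stand at 0.67 and 0.68, and Alb over Afm at 0.01.

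Levels of the 8 genes were also set against the strength of the positive acute phase response, scored in each liver by averaging log2 CPM over its 23 genes. The score ran from 7.61 to 8.18 in vehicle livers. In emodin livers 1 to 8 it was 7.95, 10.44, 8.27, 10.50, 9.74, 8.76, 9.12 and 9.85, so 1 emodin liver lay within the vehicle range. Correlations were computed within each group, never across both. Across the 8 emodin livers Alb had Pearson's r = -0.83 (exact permutation p = 0.0115, adjusted over the 8 genes 0.0696) and Spearman's rho = -0.83 (exact permutation p = 0.0154, adjusted 0.0615). Afm had r = -0.79 (exact permutation p = 0.0174, adjusted 0.0696) and rho = -0.86 (exact permutation p = 0.0107, adjusted 0.0615). Neither passed after adjustment. Without the 2 livers farthest from the median score, emodin livers 1 and 3, r was -0.88 for Alb and -0.78 for Afm. The coefficients of the other 6 genes were nearer to 0, from -0.59 for Gc and -0.53 for Serpina6 to -0.12 for Fetub (exact permutation adjusted p 0.325 to 0.817). Their rho ran from -0.76 for Gc (exact permutation p = 0.0368, adjusted 0.0980) and -0.71 for Serpina6 (exact permutation p = 0.0576, adjusted 0.115) to 0 for Ahsg and Fetub. Scaling by total counts brought Afm past the threshold, and so did leaving out emodin liver 8, while leaving out emodin liver 7 did so for Alb.

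In the 8 vehicle livers, whose scores span a narrow range, the same coefficients were positive: 0.58 for Alb, 0.66 for Afm, 0.78 for Serpina6 and 0.59 for Ahsg, and 0 of 8 passed (exact permutation adjusted p 0.245 to 0.565). Spearman's rho was 0.71 for Alb, 0.83 for Afm, 0.33 for Serpina6 and 0.83 for Ahsg (exact permutation adjusted p 0.154, 0.0615, 0.685 and 0.0615). Without vehicle livers 1 and 8 r was 0.82 for Alb, 0.94 for Afm, 0.95 for Ahsg and -0.14 for Serpina6, so the Serpina6 relation rests on those livers. In the same 6 livers r was -0.60 for Ttr and -0.88 for Rbp4, against 0.42 and 0.26 over all 8. The difference between the groups' coefficients was not tested.

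**Figure D5:**
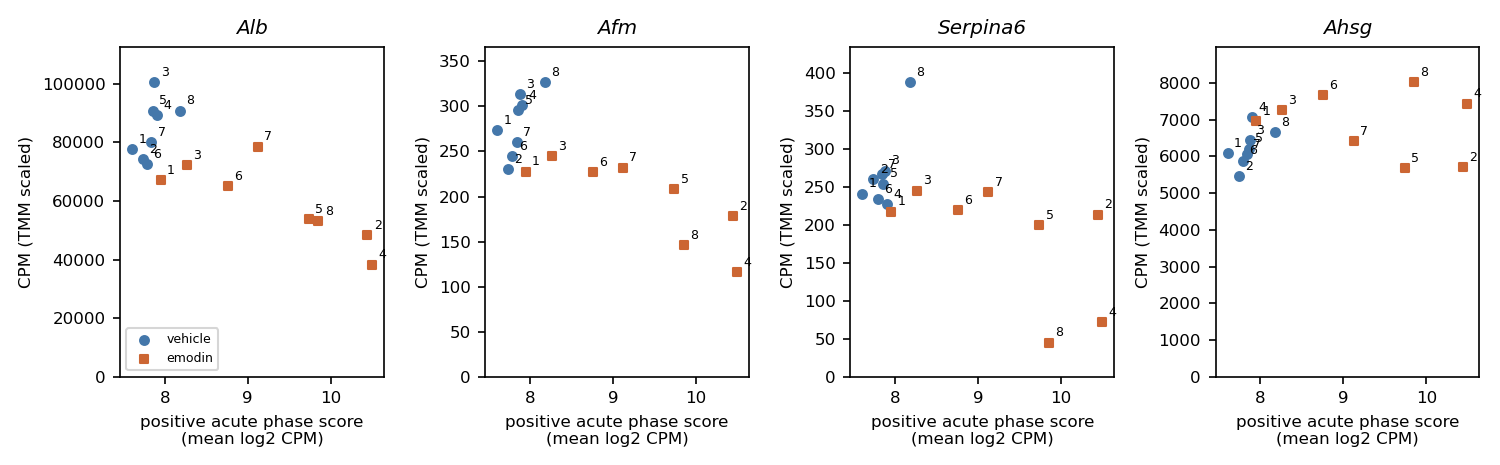
Level in CPM (TMM scaled, linear axis from 0) of Alb, Afm, Serpina6 and Ahsg against the positive acute phase score of the same liver (mean log2 CPM of 23 genes). Blue circles are vehicle livers and orange squares emodin livers, each with its replicate number. Vehicle scores lie between 7.61 and 8.18, and emodin scores reach 10.50. Alb and Afm have r = -0.83 and -0.79 with the score over the emodin livers (log2 CPM), neither passing (exact permutation adjusted p = 0.0696 each). Over the vehicle livers r is 0.58 and 0.66, also not passing.

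The 8 genes fell into neighbouring patterns once the group means were taken off. Over the 16 livers, which share their libraries and scaling, the correlation of centred log2 CPM was 0.90 between Alb and Afm, 0.94 between Ttr and Rbp4, 0.93 between Ttr and Serpina6, 0.90 between Rbp4 and Fetub, 0.90 between Serpina6 and Gc and 0.86 between Gc and Afm. Alb was at 0.28 with Rbp4 and 0.16 with Fetub. Ahsg stood apart from the other carriers, at 0.19 with Alb, -0.44 with Ttr and -0.37 with Fetub, its neighbour on the chromosome. Emodin liver 8 was the lowest emodin liver in Ttr, Rbp4, Serpina6, Fetub and Gc and the highest in Ahsg. How far the coefficients rest on that liver was not tested. These coefficients are a description without a test.

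Among 7184 other annotated genes with a mean of at least 10 CPM, those whose centred pattern over the 16 livers was most like that of Alb were Lclat1 (r = 0.93), Vps13a (0.93), Opa1 (0.91), Aco1 (0.91) and Cert1 (0.91). Of these Cert1, a ceramide transfer protein gene, was called lower (log2 fold change -0.43 ± 0.12 SE, edgeR adjusted p = 0.0246), and the other 4 were not called. Afm was most like Serpind1, which encodes heparin cofactor II, and Cyp2c29 (0.95 each). Gc was most like F2, the prothrombin gene (0.98), and Ces1c (0.97). Ttr was most like Cmtm8 and Pcbp2 (0.96 each), Rbp4 like Apoa2 and Mpc2 (0.97 each), and Serpina6 like Hpd and Acss3 (0.97 each). Fetub was most like Ifnar2 (0.95) and Apoa2 (0.93). For Ahsg the closest gene named was Irak1 (0.82), less close than for any other of the 8.

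Other plasma proteins of the liver were set beside the 8 genes. Of 15, among them the transferrin, antithrombin and apolipoprotein A genes, edgeR called 0 in either direction, with a median log2 fold change of -0.01. At an unadjusted p under 0.05 there were 1 higher and 2 lower, and DESeq2 called 1 higher and 1 lower. Ambp, the alpha-1-microglobulin and bikunin precursor, was at 1820 ± 96.4 and 2154 ± 299 CPM (log2 fold change 0.24 ± 0.09 SE, edgeR adjusted p = 0.0938, n = 8 each). Apoh, beta-2-glycoprotein I, was at 1781 ± 117 and 1492 ± 231 CPM (-0.26 ± 0.10 SE, edgeR adjusted p = 0.104, n = 8 each), and 6 of 8 emodin livers were below every vehicle liver.

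Positive acute phase genes went up in the same livers: 18 of 23 rose and 0 fell (edgeR), with a median log2 fold change of 1.24. With array weights limma voom called 11 of them higher. The protease inhibitor gene Serpina3n rose from 265 ± 33.8 to 685 ± 277 CPM (log2 fold change 1.37 ± 0.20 SE, edgeR adjusted p = 0.000538), with all 8 emodin livers above every vehicle liver. Fgl1, the hepatocyte-secreted fibrinogen-like protein 1, rose by 2.11 ± 0.31 on the log2 scale (edgeR adjusted p = 0.00086) and Itih3, a heavy chain of the inter-alpha-inhibitors, by 1.10 ± 0.19 (edgeR adjusted p = 0.00178). Haptoglobin (Hp), which binds free hemoglobin, rose by 1.58 ± 0.27 (edgeR adjusted p = 0.00218), with all 8 emodin livers above every vehicle liver.

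Of 17 transcription factor genes known to act on albumin and related liver promoters or on the acute phase response, 3 rose and 2 fell (edgeR), with a median log2 fold change of 0.10. Without emodin livers 4, 5 and 8 the number that rose was 1. Nr5a2, the liver receptor homolog 1, fell from 78.6 ± 9.65 to 60.1 ± 5.09 CPM (-0.39 ± 0.08 SE, edgeR adjusted p = 0.00608, n = 8 each). Nfib, a nuclear factor I gene, fell from 84.3 ± 10.5 to 58.0 ± 12.7 CPM (-0.54 ± 0.12 SE, edgeR adjusted p = 0.0103, n = 8 each), and 7 of 8 emodin livers were below every vehicle liver. Stat3, the transducer of interleukin-6 signals, rose from 79.9 ± 21.8 to 121 ± 27.1 CPM (0.60 ± 0.16 SE, edgeR adjusted p = 0.0216, n = 8 each). Cebpd, named after its values were seen, rose from 6.24 to 10.2 CPM (0.70 ± 0.19 SE, edgeR adjusted p = 0.0245). Also named after their values were seen, Hnf4a (0.36 ± 0.12, edgeR adjusted p = 0.0607), Cebpa (0.08 ± 0.13, edgeR adjusted p = 0.702) and Dbp (-0.28 ± 0.23, edgeR adjusted p = 0.439) did not pass.

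Genes that handle the cargo of these carriers, for vitamin A, thyroid hormone, glucocorticoids, vitamin D and vitamin E, were listed together with receptors that bind the proteins. Of 18 tested, edgeR called 0 higher and 2 lower, with a median log2 fold change of -0.03. Insr, the insulin receptor gene, was at 153 ± 14.9 and 126 ± 14.9 CPM (-0.28 ± 0.08 SE, edgeR adjusted p = 0.0343, n = 8 each), a call lost without any of vehicle livers 1, 3, 5, 7 or 8 or emodin livers 2, 4, 6 or 8. Cyp2r1, a vitamin D 25-hydroxylase gene, was at 16.3 ± 1.9 and 14.0 ± 0.678 CPM (-0.22 ± 0.07 SE, edgeR adjusted p = 0.0492, n = 8 each), and it kept its call only when vehicle liver 6 or emodin liver 1 was the liver left out.

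Of 11 relatives and chromosome neighbours of the 8 genes, 2 rose and 0 fell (edgeR), and 0 rose without emodin livers 4, 5 and 8. Both are neighbours of Serpina6 on chromosome 12 and members of its family. Serpina10, the protein Z-dependent protease inhibitor gene, rose from 150 ± 9.12 to 262 ± 121 CPM (0.80 ± 0.22 SE, edgeR adjusted p = 0.0232, n = 8 each), and 5 of 8 emodin livers were above every vehicle liver. Serpina11 rose from 42.5 ± 6.79 to 57.8 ± 11.9 CPM (0.44 ± 0.13 SE, edgeR adjusted p = 0.0295, n = 8 each), a call lost without any of vehicle livers 5, 7 or 8 or emodin livers 2 or 4. The Serpina1 genes are near-identical copies whose counts are uncertain one by one.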

How the data were processed

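Per the labels' protocols, each library used 1 µg of total RNA. The authors deposited 1 table of estimated counts per gene; the unit was read from its values, whole numbers scaled neither by depth nor by length. The submitters' processing notes name cutadapt 1.9.1, HISAT2, SAMtools 0.1.19, HTSeq 0.6.1, Cufflinks 2.2.1 and mm10 without roles, so how reads shared between genes were counted is not given in the sources used here. Groups came from the sample labels. The test was that of edgeR 4.0.16 under R 4.3.3 (filterByExpr, TMM factors 0.929 to 1.16, robust quasi-likelihood F test, group as the single term), adjusted by Benjamini-Hochberg over 14308 entries and called at 0.05. In simulated counts for this comparison over 14308 entries, 100 changes of each size were placed, only in entries above a minimum mean level. Of these, 65% of the 1.5-fold and 99% of the 2-fold changes were recovered. No simulated liver was made to stand apart from its group. The SE is the absolute log2 fold change over the square root of F. Ratios used estimated counts plus 0.5, and scores log2 CPM with a prior count of 2. Of 21833 Ensembl IDs, 21779 were found in GENCODE M21, 21126 with the same symbol. Estimated counts are not independent molecules, and every test used the spread between livers. Named were the 8 genes, up to 4 called genes of each list with the smallest p (2 where none was called), and the genes most alike in pattern, 5 for Alb and 2 for each other gene; a few genes that this rule or the lists would name are not reported here. Alternatives were other scalings, filters, DESeq2 1.42.0, limma 3.58.1 (voom, array weights, quantile), rank-sum tests, a replicate block and each liver left out. The 8 genes and all lists were chosen with earlier results of these data known.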

Additional observations from a re-analysis of the deposited data

Results flagged for a closer look

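In 50 groups of 8 livers (the 8 genes and the 17 ratios that passed, in each treatment), the gap between the most extreme liver and the next was compared with the whole range, and 4 groups held a liver whose gap passed Dixon's 95% limit. Chance flags about 1 in 20 groups. Serpina6 in vehicle liver 8 was at 388 CPM, with the next highest vehicle liver at 272 CPM. Fetub in emodin liver 8 was at 279 CPM, with the next lowest emodin liver at 494 CPM. The Ttr/Rbp4 log2 ratio was 1.33 in vehicle liver 4, with the next at 1.20. The Gc/Afm log2 ratio was 5.30 in emodin liver 4, with the next at 4.91. The gaps were 0.724, 0.549, 0.550 and 0.533 of the range, in that order.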

How the results depend on the processing

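Of the alternatives tried, leaving out emodin livers 4, 5 and 8 (array weights under 0.5) was chosen after seeing the data. Unless a cause is given, the cause of a change was not tested. Entries called higher numbered 1102 and changed to 628 with the replicate block, 716 with quantile normalization, 734 without the low-weight livers and 709 to 1333 with single livers left out, and entries called lower numbered 782 and changed to 521 to 903 with single livers left out. Quantile normalization turned the higher share of calls from 58.5% to 42.3%. The 2 of the 8 genes called lower became 1 with no count filter, with quantile normalization and without the low-weight livers, 0 with the replicate block, and 1 to 2 with single livers left out. Alb was not called with no filter (edgeR adjusted p = 0.0726), with the replicate block (0.0657; Afm 0.0501) and without the low-weight livers, and under quantile normalization its difference is 0 by construction, since it is the top entry of every liver. The median of the 8 genes went from -0.16 to -0.03 without the low-weight livers.

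Among other plasma proteins the 0 called lower became 1 with total counts, DESeq2 and the rank-sum test and 3 with quantile normalization, and the 0 called higher became 1 with DESeq2 and without the low-weight livers and 0 to 1 with single livers left out. Positive acute phase genes called higher went from 18 to 11 with array weights, and regulators from 3 to 1 without the low-weight livers. Cargo genes called lower went from 2 to 0 with no filter, to 1 with TMM computed without the 50 most abundant entries, with the replicate block, with limma voom and without the low-weight livers, and to 0 to 2 with single livers left out. Relatives called higher went from 2 to 1 with the replicate block, quantile normalization and the rank-sum test, 0 without the low-weight livers and 1 to 3 with single livers left out. In emodin livers the 0 genes that passed in correlation with the score became 1 with total counts and 0 to 1 with single livers left out.

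Signs changed in values near 0. The Rbp4 fold change went to 0.0397 with array weights, 0.119 without the low-weight livers and -0.112 to 0.0296 with single livers left out (positive without emodin liver 8), and that of Gc to 0.0124 without the low-weight livers. With the low-weight livers out, the ratio differences were -0.0218 for Alb/Afm, 0.103 for Rbp4/Gc, -0.143 for Alb/Serpina6, 0.121 for Serpina6/Afm and -0.0945 for Ahsg/Fetub. With single livers left out they were -0.0281 to 0.0424, -0.0522 to 0.0617, -0.031 to 0.309, -0.277 to 0.00288 and -0.0716 to 0.174, in the same order. The Ahsg correlation in emodin livers was 0.15 with total counts, and that of Fetub -0.341 to 0.207 with single livers left out (positive without emodin liver 8). With single livers left out the vehicle correlations were -0.305 to 0.571 for Ttr, -0.524 to 0.418 for Rbp4 and -0.343 to 0.762 for Fetub, negative without vehicle liver 8.

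Same-numbered livers did not deviate together: their correlations were 0.080, -0.024, 0.076, 0.245, 0.003, -0.085, -0.149 and -0.108, so the replicate numbers were not taken as pairs. Emodin livers 1 and 4 alone correlated best with their own number. With sign flips of same-numbered differences as the replicate block, 15 of the 28 gene pairs passed in place of 17. Each of the 8 genes had at least 1767 estimated counts in every liver, and the part of depth in these comparisons was not tested.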
